A study of Mus musculus with 6 samples.

Results

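Spp1, which encodes the secreted phosphoprotein osteopontin, and Cd44, which encodes one of its cell-surface receptors, were described in liver cells of CD-1 mouse embryos that carry Sox9-GFP, isolated by flow sorting for GFP. They are 2 of the 52550 genes in the deposited table and were found by their gene identifiers. Spp1 was selected for its large rise between the stages, in transcript abundance scaled by exon length and library total (TPM), so its change between the stages is given as a description, without a test. Cd44 was selected as the receptor of osteopontin and its change was tested across all genes. The cells were collected at E16.5 and at E18.5, which the sample labels give as embryonic days 16 and 18, with 3 libraries (replicates A, B and C) per stage and no other treatment. Each library came from a pool of 15 livers, so the spread between libraries is a spread between pools and not between embryos. The GFP reports Sox9, which was itself the basis of the sort, and blood lineage cells had been depleted magnetically beforehand.

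Osteopontin is an acidic extracellular matrix protein that cells secrete into bone matrix, into body fluids and, in the liver, from the biliary epithelium, where it is found at the apical pole of cholangiocytes facing the lumen. It carries an arginine-glycine-aspartate (RGD) motif that is recognised by integrins, and a thrombin cut beside that motif opens a further integrin site. CD44 is a membrane glycoprotein whose main ligand is the matrix polysaccharide hyaluronan. It also binds osteopontin, mainly through forms that include its alternatively spliced variable exons.

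The stretch of Spp1 coding sequence that holds the integrin motif is shown because the integrin receptors described further on recognise it. It lies in exon 7 of 8, at chr5:104439469-104439528 on the plus strand (GRCm38, GENCODE vM21), and holds 20 codons. The 3 RGD codons, in capitals, occur 1 time in the 885-base coding sequence.
Spp1 RGD stretch: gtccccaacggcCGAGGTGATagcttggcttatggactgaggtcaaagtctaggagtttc

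The 250 bases before the transcription start of both genes are shown because their levels in these cells differed so widely. Both sequences come from RefSeq (GRCm38.p6) and are written 5′ to 3′ on the strand of the gene, and capitals mark matches, on either strand, to the letters searched. The Spp1 sequence spans chr5:104434861-104435110 on the plus strand, before the upstream of 2 listed starts. The Cd44 sequence spans chr2:102901666-102901915 on the minus strand.
Spp1 promoter: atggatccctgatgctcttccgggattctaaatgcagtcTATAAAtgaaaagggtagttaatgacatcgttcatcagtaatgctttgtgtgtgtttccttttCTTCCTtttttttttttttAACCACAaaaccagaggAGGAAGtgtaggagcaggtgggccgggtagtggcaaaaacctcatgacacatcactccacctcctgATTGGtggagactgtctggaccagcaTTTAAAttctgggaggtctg
Cd44 promoter: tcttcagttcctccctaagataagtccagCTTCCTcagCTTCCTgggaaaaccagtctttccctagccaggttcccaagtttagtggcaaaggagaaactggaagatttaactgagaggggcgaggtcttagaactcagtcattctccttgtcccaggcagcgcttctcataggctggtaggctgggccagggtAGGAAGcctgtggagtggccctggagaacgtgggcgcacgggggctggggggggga

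The Spp1 window had a GC content of 43.6% and the Cd44 window one of 56.4%, on either side of the median of 52.4% over the 32851 listed promoters. The Spp1 window held TATAAA, beginning 211 bases before the start and present in 12.4% of all promoter windows of this length, and TTTAAA, 20 bases before the start and present in 12.1%. It also held the CCAAT box (CCAAT) on the reverse strand 46 bases before the start, found in 33.8% of windows, and the RUNX letters AACCACA 129 bases before it, found in 4.4%. The ETS letters AGGAAG, present in 29.5% of windows, matched at 148 bases (reverse strand) and 112 bases before the Spp1 start. In the Cd44 window they matched at 221 and 212 bases (both on the reverse strand) and at 56 bases before the start. The letters of a GC box (GGGCGG), a SOX site (AACAAT), an AP-1 site (TGANTCA), a USF E-box (CACGTG), a GLI site (GACCACCC) and the direct repeat of the vitamin D receptor were in neither window. No match overlapped another, and a match of letters is a description of the sequence only.

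The authors had converted read counts to TPM, so that levels of different genes can be compared. The length used was that of all exons of a gene, so such a comparison depends on which transcripts were present. Reads recovered from these values came to between 13093937 and 26206374 per library, and every counting interval given here covers counting error only. For the tests, log2(TPM + 1) was compared with limma over 22452 genes whose mean reached 1 TPM, and p-values were adjusted by Benjamini-Hochberg, with a threshold of 0.05. Of these, 31.2% were past the threshold, 26% higher and 5.22% lower at E18.5, and the median log2 change of all genes was 0.42. Under median-of-ratios scaling that median was 0.01, and the share of calls that were higher went from 83.3% to 38.1%. A small change on the deposited scale therefore depends on the scaling, and for 19 of the 29 pathway genes that did not pass the test, and for Srrm1 among those that did, the direction turned in at least 1 alternative. The biliary identity of the cells was checked on 10 marker genes, which summed to between 510 and 1186 TPM at E16.5 and between 2182 and 2805 TPM at E18.5. Hepatoblast markers were more abundant in every library, at 158479 to 199512 TPM for the sum of 10 genes at E16.5 and 36715 to 84647 TPM at E18.5.

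Spp1 was among the most abundant transcripts of these cells and was higher in every E18.5 library than in any E16.5 library. At E16.5 it stood at 1278 TPM in replicate A, 1767 in replicate B and 469 in replicate C. At E18.5 it stood at 10012 TPM in replicate A, 12121 in replicate B and 6629 in replicate C. The stages did not overlap, and in both of them replicate B was the highest library and replicate C the lowest. Such a separation was found for 53.3% of the genes tested, for 45% with E18.5 on the higher side and for 8.3% on the lower, and since Spp1 was chosen for this contrast nothing is read from it.

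The mean level of Spp1 was 1171 ± 655 TPM (SD, n = 3) at E16.5 and 9587 ± 2771 TPM (SD, n = 3) at E18.5, a ratio of means of 8.19. The lowest E18.5 library was 3.75 times the highest E16.5 library. On the log2(TPM + 1) scale the change was 3.19 with a standard error of 0.50, and 16 of the 22452 genes had a higher value. Libraries of one stage differed more at E16.5, where the highest was 3.77 times the lowest, than at E18.5, where it was 1.83 times. These differences were far above counting error, since 6166 to 112869 reads stood behind each value and the 95% exact intervals of neighbouring libraries did not overlap (457 to 481 TPM for the lowest library). Among the 21819 protein-coding genes, Spp1 ranked 41, 28 and 123 in E16.5 replicates A, B and C and 3, 2 and 4 at E18.5. Its transcripts made up 0.128%, 0.177% and 0.0469% of the library at E16.5, and 1.001%, 1.21% and 0.663% at E18.5.

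The gene lies at chr5:104435118-104441050 on the plus strand (GRCm38), and its exons span 1648 bases in GENCODE vM21. Of these, 309 bases (18.8%) are shared with Gm42793, an unclassified gene model on the same strand, and reads in the shared bases may have been left out of the Spp1 count or not. Gm42793 was listed at 17.3, 20.8 and 9.51 TPM at E16.5 and at 116, 95.5 and 97.4 TPM at E18.5. Its level was 0.788% to 2.03% of that of Spp1.

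**Figure D1:**
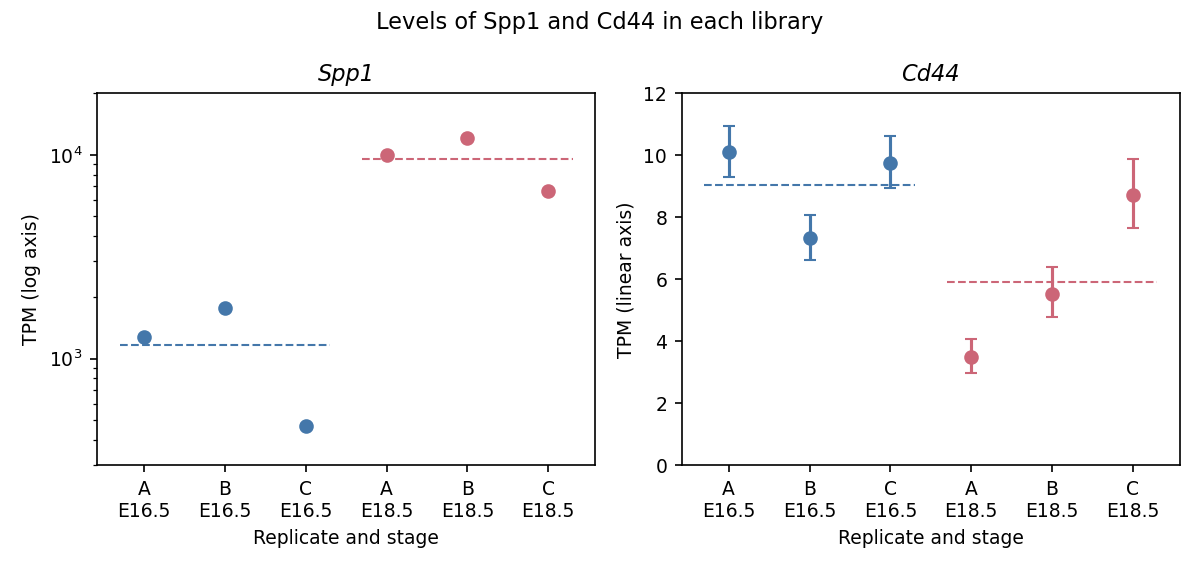
Levels of Spp1 (left, log axis) and Cd44 (right, linear axis) in TPM in each library, with 95% exact counting intervals as bars (smaller than the points for Spp1) and the mean of each stage as a dashed line. Spp1 runs from 469 to 1767 TPM at E16.5 and from 6629 to 12121 TPM at E18.5, whereas the Cd44 libraries of the stages overlap between 7.32 and 8.72 TPM.

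Cd44 was present at a level lower than Spp1 by orders of magnitude, and its change between the stages did not pass the test. At E16.5 it stood at 10.1 TPM in replicate A, 7.32 in replicate B and 9.75 in replicate C. At E18.5 it stood at 3.50 TPM in replicate A, 5.54 in replicate B and 8.72 in replicate C. The stages overlapped, since E18.5 replicate C was above E16.5 replicate B, and E18.5 replicates A and B were the lowest libraries.

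The mean level of Cd44 was 9.06 ± 1.51 TPM (SD, n = 3) at E16.5 and 5.92 ± 2.63 TPM (SD, n = 3) at E18.5, a ratio of means of 0.654. The log2 change was -0.60 with a standard error of 0.31 and an adjusted p of 0.164 by limma, and its 95% interval ran from -1.32 to 0.12, or from 0.400 to 1.09 as a fold. An exact two-sided permutation test on the TPM gave p = 0.2, where 3 libraries against 3 cannot go below 0.1. Of the 15 alternative analyses, all 15 kept the change negative, with adjusted p-values from 0.0305 to 0.403. One of them, limma voom on the recovered reads, was past the threshold, at -1.23 and the adjusted p of 0.0305. Median-of-ratios scaling gave -1.002 (adjusted p 0.0781 by limma) and quantile normalization -1.0038 (adjusted p 0.0631 by limma). On the deposited scale, leaving out replicate A of E18.5 brought the change to -0.32, and leaving out replicate C of E18.5 to -0.88.

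In order of level, Cd44 was highest in E16.5 replicate A, followed by E16.5 replicate C, E18.5 replicate C and E16.5 replicate B, and the 95% exact counting intervals of neighbours in this order overlapped. E18.5 replicates B and A came next, each apart from its higher neighbour by more than counting error. The values rested on 387 to 587 reads at E16.5 and on 162 to 240 reads at E18.5. The mean of Cd44 exceeded the mean of 57.1% of the protein-coding genes at E16.5 and of 48.5% at E18.5. The gene lies at chr2:102811141-102901665 on the minus strand, its exons span 6776 bases shared with no other gene, and the annotation lists 9 transcripts, of which 8 are coding. A value per gene cannot separate the standard form of CD44 from the forms with variable exons.

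Set side by side, the ligand transcript exceeded the receptor transcript 127, 241 and 48.1 times in E16.5 replicates A, B and C, and 2865, 2186 and 760 times at E18.5. The ratio was higher in every E18.5 library than in any E16.5 library, and since Spp1 was chosen for its rise nothing is read from this. Over the same 6 libraries Spp1 spanned 469 to 12121 TPM and Cd44 3.50 to 10.1 TPM. The TPM were scaled by all exon bases of a gene, 6776 for Cd44 and 1648 for Spp1. Coding transcripts run from 1305 to 5614 bases for Cd44 and from 354 to 1507 bases for Spp1. The size of the ratio therefore depends on the transcripts present, which were not measured.

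The rise of Spp1 was set beside that of 10 biliary marker genes, which do not stand for every gene of the biliary epithelium. The 10 biliary markers include the sorted-for transcription factor Sox9, the adhesion molecule Epcam and the keratins Krt7 and Krt19. All 10 stood higher in every E18.5 library than in any E16.5 library, as did 45% of all genes tested. By limma 8 of the 10 were past the threshold, where 26% of all genes were higher, and by voom 5 of the 8 tested. The log2 changes of the 10 markers ran from 0.77 for Tspan8 to 1.94 for Krt19, all below the 3.19 of Spp1. In both stages the summed level of the markers had the same order of libraries as Spp1, with replicate B highest and replicate C lowest. In sorted bulk cells, fewer cells of a type and less RNA per cell cannot be told apart.

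Relative to individual biliary markers, Spp1 was still higher at E18.5. The ratio of Spp1 to Sox9 was 8.12, 9.49 and 6.75 in E16.5 replicates A, B and C and 24.1, 26.0 and 18.8 at E18.5. With Epcam as the reference the ratio was 13.7 ± 1.47 (SD, n = 3) at E16.5 and 36.1 ± 3.63 (SD, n = 3) at E18.5. Neither ratio overlapped between the stages, and since Spp1 was chosen for its rise nothing is read from this. Within a stage the libraries lay closer together for both ratios than for Spp1 itself. The E16.5 replicate C, whose Spp1 was 2.72 times below that of the next library, was at 14.1 times Epcam, close to the others.

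On the log2(TPM + 1) scale, Spp1 exceeded the mean of the 10 biliary markers by 4.12, 4.62 and 4.21 in E16.5 replicates A, B and C, and by 6.07, 6.30 and 5.64 at E18.5. The difference between the stages was 1.69, with means of 4.32 ± 0.27 and 6.01 ± 0.33 (SD, n = 3). As Spp1 was chosen for its rise, this is a description without a test. Albumin (Alb), the hepatoblast and hepatocyte secretory product, was lower in every E18.5 library without passing the test (adjusted p 0.146 by limma), and the ratio of Spp1 to Alb was 0.0108, 0.0142 and 0.00317 at E16.5 and 0.166, 0.404 and 0.0945 at E18.5. The share of biliary and hepatoblast cells in each pool cannot be told apart from the level per cell here.

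**Figure D2:**
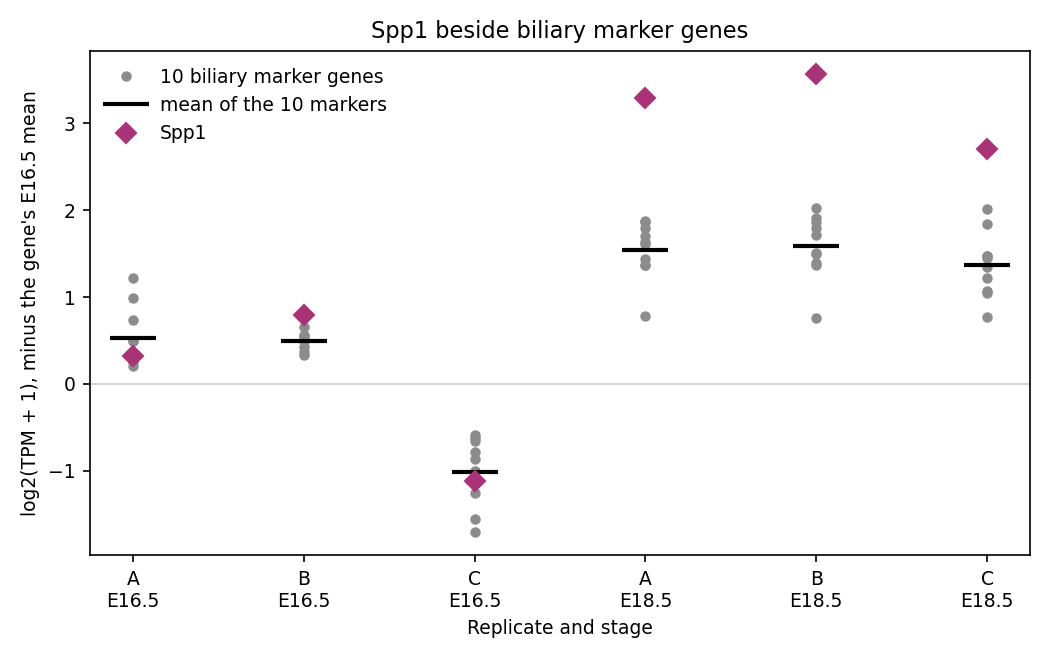
Change of Spp1 (diamonds) and of 10 biliary marker genes (grey points, with their mean as a bar) in each library, as log2(TPM + 1) minus the mean of the gene at E16.5. As every gene is centred on its own E16.5 mean, Spp1 sits among or close to the markers at E16.5. At E18.5 it sits above all 10 markers in all 3 libraries, from which nothing is read, since Spp1 was chosen for its rise.

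Markers of the other cells that the sort could hold were set beside Cd44, which is widely expressed in blood, mesenchymal and endothelial cells. Within each stage, Cd44 had the same order of libraries as the summed mesenchymal and the summed endothelial markers. The 10 mesenchymal markers summed to 247, 110 and 183 TPM in E16.5 replicates A, B and C and to 249, 436 and 695 TPM at E18.5. The 8 endothelial markers summed to 146, 88.2 and 124 TPM at E16.5 and to 75.9, 143 and 157 TPM at E18.5. The single endothelial markers did not all have the order of their sum. At E16.5 Pecam1, Tek and Esam were lowest in replicate B, whereas Cdh5, Kdr, Emcn, Egfl7 and Clec14a were lowest in replicate C. No marker of either list was at 0 in any library.

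Between the stages, 3 of the 9 mesenchymal markers tested were higher at E18.5 and none lower by limma, where 26% of all genes were higher, and the list median was 1.09. The ratio of Cd44 to the collagen gene Col1a1 was 0.118, 0.197 and 0.144 at E16.5 and 0.0400, 0.0347 and 0.0324 at E18.5, lower in every E18.5 library. Of the 8 endothelial markers, 2 were higher at E18.5 and none lower by limma, with a list median of 0.41, close to that of all genes. The 8 lymphoid and pan-leukocyte markers summed to 102 to 273 TPM at E16.5 and 16.6 to 57.3 TPM at E18.5, and of the 7 tested 2 were higher and 2 lower by limma. Those 2 lower were Coro1a (-3.30) and Laptm5 (-2.85), whereas the defining gene Ptprc stood between 0.539 and 2.13 TPM in all libraries and Cd52 was at 0 in E16.5 replicate B. Likewise the 12 macrophage markers summed to 87.6 to 133 TPM at E16.5 and 89.3 to 164 TPM at E18.5. The part of these cells in the level of Cd44 was not tested.

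**Figure D3:**
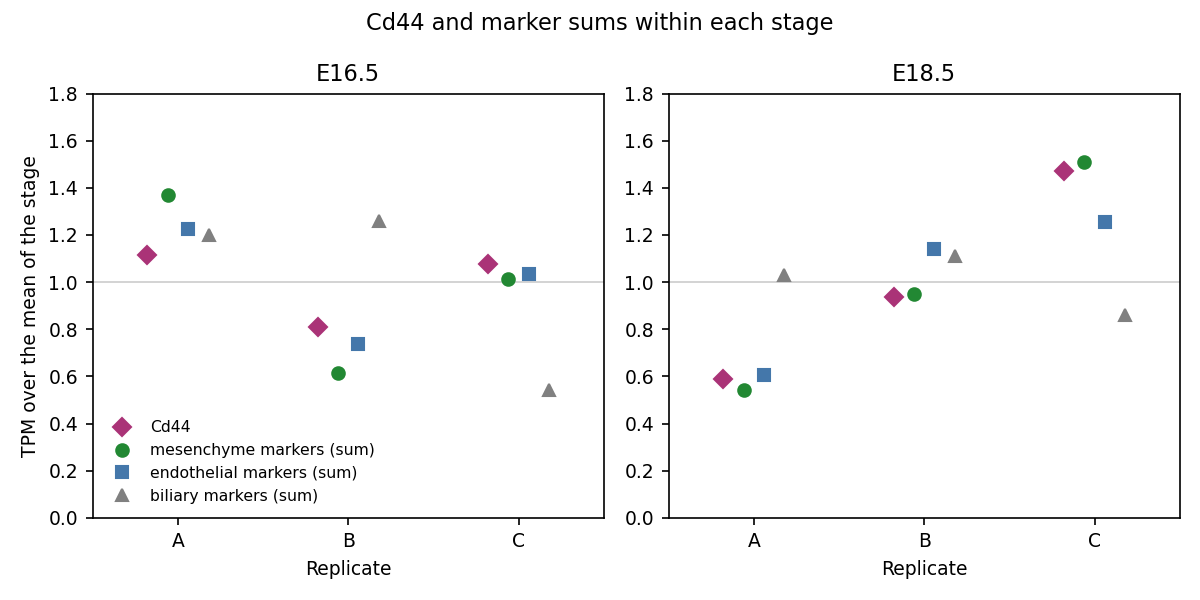
Cd44 and the summed TPM of mesenchymal (10 genes), endothelial (8 genes) and biliary (10 genes) markers in each replicate, divided by their own mean over the 3 libraries of the stage. In both stages Cd44, the mesenchymal sum and the endothelial sum have the same order of replicates, and the biliary sum has another.

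The other genes of the osteopontin and CD44 pathway were taken from 9 lists with 63 genes in all, of which 49 passed the filter on low values. Of these 49, 18 were higher (36.7%) and 2 lower (4.08%) at E18.5 by limma, where 26% and 5.22% of all genes were. Their median log2 change was 0.44, beside 0.42 for all genes. Under median-of-ratios scaling 6 were higher and 5 lower.

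**Figure D4:**
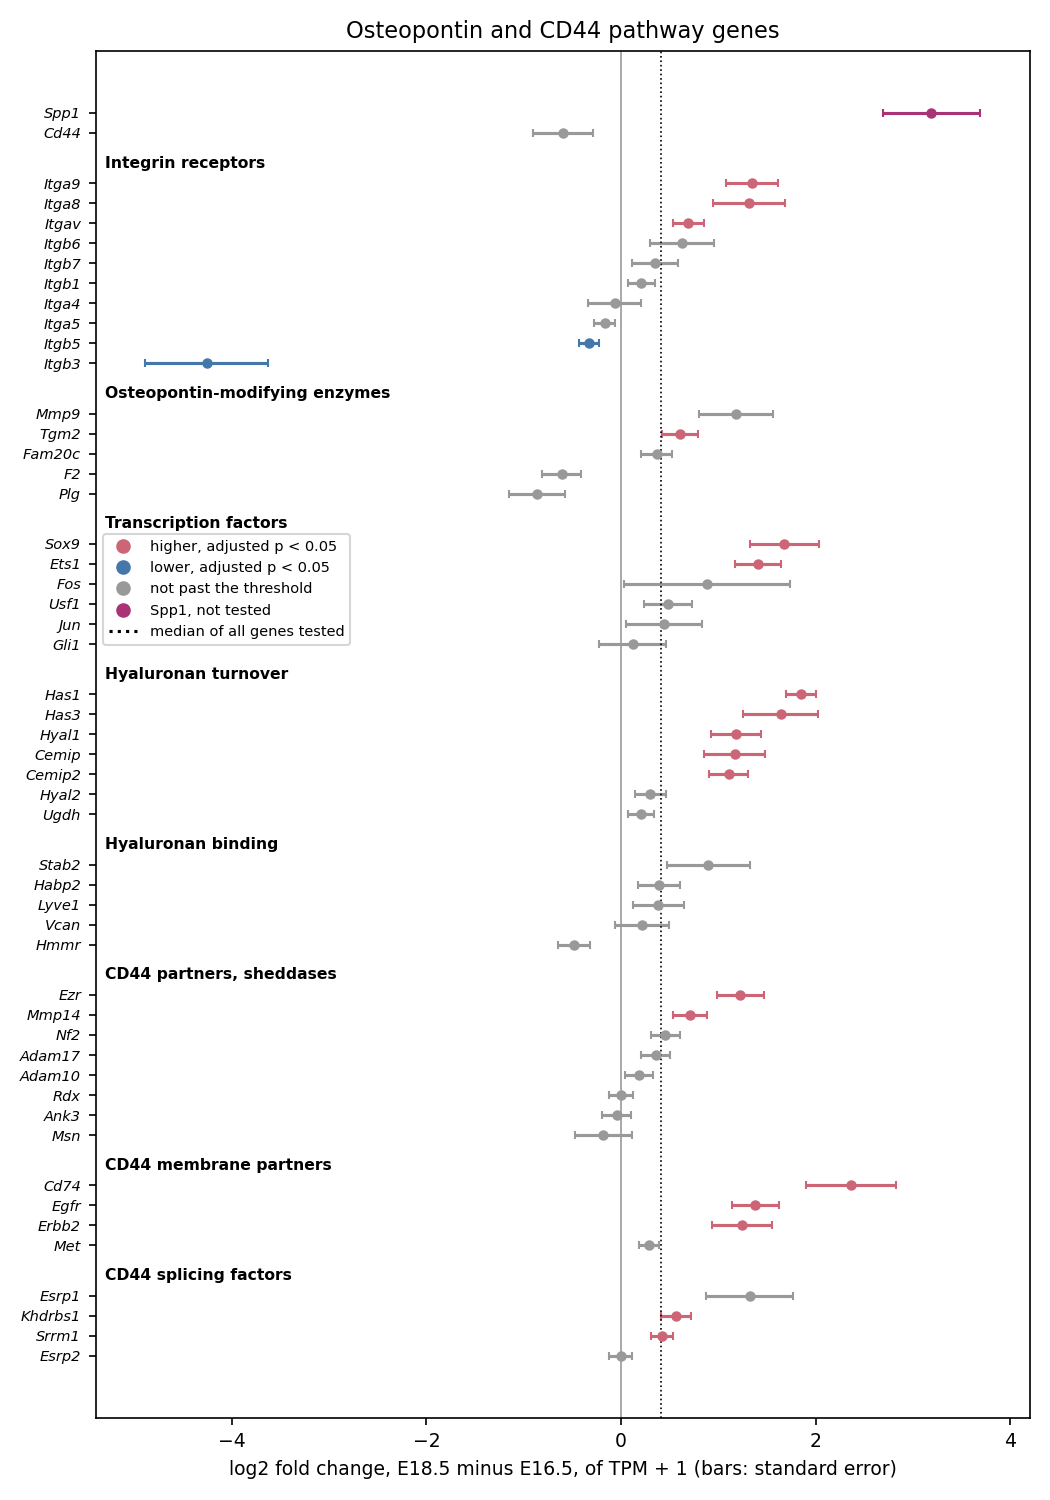
Log2 change of TPM + 1 from E16.5 to E18.5 with its standard error for Spp1, Cd44 and the 49 tested pathway genes, grouped by role; colours give the limma call and the dotted line the median of all genes (0.42). Spp1 lies at 3.19, Cd44 at -0.60 and Itgb3 at -4.26, while the other genes lie between -0.86 and 2.37.

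Integrins are heterodimers of an alpha and a beta chain, and those that bind osteopontin pair the alpha-v chain or the alpha-4, alpha-5, alpha-8 and alpha-9 chains with a beta partner. Of 10 integrin genes, all tested, 3 were higher and 2 lower at E18.5 by limma, where 26% and 5.22% of all genes were. Their median log2 change was 0.28. The most abundant of them at E18.5, Itgb1, the common beta-1 chain, was listed at 563, 513 and 541 TPM at E16.5 and at 574, 729 and 577 TPM at E18.5, with an adjusted p of 0.267. It exceeded Cd44 in every library.

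Itgav, the alpha-v chain that recognises the RGD motif printed above, rose from 48.7, 50.9 and 37.1 TPM to 69.0, 83.7 and 68.7 TPM (log2 change 0.69 ± 0.16 SE, adjusted p 0.0215 by limma). Its change was 0.23 under median-of-ratios scaling, 0.40 under quantile normalization and 0.25 with voom, in each case not past the threshold. Nor was Itgav past it without E18.5 replicate A or replicate B. Its ratio to Itgb1 was 0.0865, 0.0991 and 0.0685 at E16.5 and 0.120, 0.115 and 0.119 at E18.5. This ratio does not depend on a scaling factor per library, and its difference between the stages was not tested.

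Itga9, whose chain binds the site opened by thrombin, rose from 13.5, 7.70 and 8.30 TPM to 19.4, 27.8 and 32.0 TPM (log2 change 1.35 ± 0.26 SE, adjusted p 0.0153 by limma). Itga8, an RGD-binding chain found mainly in mesenchymal cells, rose from 10.4, 4.05 and 4.97 TPM to 10.9, 19.0 and 21.1 TPM (log2 change 1.31 ± 0.37 SE, adjusted p 0.0358 by limma). The call of Itga9 was lost under median-of-ratios scaling alone, where its adjusted p was 0.0514. That of Itga8 was lost in 10 of 15 alternatives, including the removal of any library except E16.5 replicate A. In both stages the libraries had the same order for Itga8, for Itga9 and for the summed mesenchymal markers given above, and the part of mesenchymal cells in these values was not tested.

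The beta-3 chain gene Itgb3 showed the largest change of the lists and the opposite direction from Spp1. It stood at 896, 517 and 1337 TPM at E16.5 and at 18.6, 111 and 39.4 TPM at E18.5, with no overlap (log2 change -4.26 ± 0.63 SE, adjusted p 0.01003 by limma), and was lower in all 15 alternatives. Beta-3 is also the partner of the platelet chain encoded by Itga2b, and the ratio of Itgb3 to Itga2b stayed between 1.75 and 2.19 in all 6 libraries. All 10 megakaryocyte markers were lower at E18.5 by limma, where 5.22% of all genes were. Their sum went from 5223, 3012 and 8812 TPM to 84.2, 699 and 200 TPM, and none was at 0 in any library. The part of megakaryocyte or platelet RNA in the Itgb3 values was not tested.

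Itgb5, another partner of the alpha-v chain, was lower at E18.5, at 93.1, 85.1 and 89.5 TPM against 73.0, 73.3 and 66.6 TPM (log2 change -0.33 ± 0.10 SE, adjusted p 0.0487 by limma). Its call was lost when any 1 of the 6 libraries was left out. Under median-of-ratios scaling and quantile normalization it was kept, at -0.79 and -0.57. Itga5, the chain of the fibronectin receptor, was listed at 136.1 to 151 TPM at E16.5 and at 116 to 135.5 TPM at E18.5. It did not pass the test, and its stages did not overlap, as for 8.3% of all genes in this direction. Under the same 2 settings Itga5 was past the threshold, at -0.63 and -0.33. Itga4, Itgb6 and Itgb7 were present at 8.03 TPM or less in every library.

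Osteopontin belongs to the SIBLING family, acidic phosphoproteins of bone and tooth whose genes lie in one cluster. The other 4 members tested for presence, Ibsp (bone sialoprotein), Dmp1, Dspp and Mepe, were near or below the limit of detection. Their highest value was 0.662 TPM, for Dspp in E18.5 replicate B, on 15 reads. Ibsp had at most 3 reads in a library and Dmp1 at most 4. Mepe had 0 reads in the 3 E16.5 libraries and at most 2 at E18.5. None of the 4 passed the filter on low values, so that among the family only Spp1 was measured at a level that could be compared.

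Of 8 enzymes that cut, crosslink or phosphorylate osteopontin, 5 were tested. By limma 1 was higher at E18.5 and none lower, where 26% of all genes were higher. Tgm2, the tissue transglutaminase that crosslinks osteopontin, rose from 219, 248 and 194 TPM to 415, 343 and 264 TPM (log2 change 0.61 ± 0.19 SE, adjusted p 0.0459 by limma). Its call was kept in the removal of E18.5 replicate C and lost in that of any other library, and it was lost under median-of-ratios scaling, where the change was 0.14.

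The precursor genes of the 2 plasma proteases that cut osteopontin were abundant. F2, which encodes prothrombin, was listed at 562 to 624 TPM at E16.5 and 292 to 496 TPM at E18.5 (log2 change -0.61, adjusted p 0.0548 by limma). It was past the threshold in 3 of 15 alternatives, with -1.08 under median-of-ratios scaling and -1.06 with voom. Plg, which encodes plasminogen, was listed at 2314 to 2722 TPM at E16.5 and 855 to 1748 TPM at E18.5 (log2 change -0.86, adjusted p 0.0596 by limma). Both are made by hepatocytes, and the order of libraries was that of the summed hepatoblast markers in both stages for Plg and in neither for F2. The metalloproteinase gene Mmp9 was at most 0.297 TPM at E16.5 and between 0.696 and 2.56 TPM at E18.5 (log2 change 1.18, adjusted p 0.0532 by limma; 2.60 and past the threshold with voom), and Mmp3, Mmp7 and Mmp12 stayed at 0.55 TPM or less. Fam20c, the kinase of secreted phosphoproteins, was listed at 29.1 to 48.4 TPM across all libraries.

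Among 8 transcription factor genes known to act on Spp1, 6 were tested. By limma 2 were higher at E18.5 and none lower, where 26% of all genes were higher. Sox9, the factor whose reporter defined the sort, rose from 157, 186 and 69.5 TPM to 415, 466 and 353 TPM (log2 change 1.68 ± 0.35 SE, adjusted p 0.0174 by limma). Without E18.5 replicate A or replicate B its adjusted p was 0.0587 and 0.0531. Ets1, a factor of the family whose letters occur in the promoters printed above, rose from 32.5, 27.3 and 17.3 TPM to 57.7, 79.0 and 68.0 TPM (log2 change 1.41 ± 0.24 SE, adjusted p 0.0120 by limma), and was past the threshold in all 15 alternatives.

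The AP-1 genes Fos and Jun did not follow the order of libraries seen for Spp1. Fos stood at 212, 218 and 591 TPM at E16.5 and at 1005, 135 and 1263 TPM at E18.5, so that E18.5 replicate B was the lowest of all 6 libraries although its Spp1 was the highest. Jun had the same lowest library, at 348 TPM, with 365 to 668 TPM at E16.5 and up to 856 TPM at E18.5. Neither passed the test, with adjusted p-values of 0.440 and 0.400 by limma. Runx2 (at most 1.04 TPM) and Vdr (at most 1.44 TPM) were below the filter, and Gli1 was at most 2.27 TPM. Usf1 was listed at 30.3 to 69.2 TPM.

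Hyaluronan, the main ligand of CD44, is made at the cell surface by the Has synthases and broken down by hyaluronidases and by the CEMIP proteins. Of the 8 genes of its turnover, 7 were tested. By limma 5 were higher at E18.5 and none lower, where 26% of all genes were higher. The median log2 change of the 7 was 1.17, beside 0.42 for all genes. Under median-of-ratios scaling and under quantile normalization, 2 of the 7 were past the threshold. The synthase gene Has1 rose from 7.20, 7.24 and 6.54 TPM to 25.3, 31.8 and 26.5 TPM (log2 change 1.85 ± 0.15 SE, adjusted p 0.00424 by limma). Has3 rose from 12.9, 16.6 and 6.15 TPM to 39.1, 50.6 and 24.4 TPM (log2 change 1.64 ± 0.39 SE, adjusted p 0.0231 by limma), and its libraries had the order of those of Spp1 in both stages. Has2 stayed at 0.514 TPM or less.

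On the side of breakdown, Cemip2, a cell-surface hyaluronidase, rose from 76.9, 75.3 and 46.8 TPM to 135, 150 and 137 TPM (log2 change 1.10 ± 0.20 SE, adjusted p 0.0134 by limma). The lysosomal enzyme gene Hyal1 also rose, with 2.82 to 5.74 TPM at E16.5 and 10.3 to 11.9 TPM at E18.5 (log2 change 1.18, adjusted p 0.0189 by limma). Cemip, a secreted hyaluronan-degrading factor, rose as well, with 0.328 to 0.849 TPM at E16.5 and 1.73 to 3.33 TPM at E18.5 (log2 change 1.17, adjusted p 0.0320 by limma). Has1 and Cemip2 were past the threshold in every alternative that tested them. Has3, Hyal1 and Cemip were not under median-of-ratios scaling, nor without E18.5 replicate A. The call of Has3 was also lost without E18.5 replicate B, and that of Cemip when any library other than E18.5 replicate C was left out. Mesothelial cells also make hyaluronan. All 8 mesothelial markers were higher at E18.5 by limma, where 26% of all genes were. They had sums of 6.46 to 23.5 TPM at E16.5 and 73.2 to 127 TPM at E18.5, and none was at 0. The part of mesothelial cells in these values was not tested.

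Of 8 other hyaluronan-binding proteins, 5 were tested and 0 passed the threshold by limma, while 1 had an unadjusted p under 0.05 and 1 was past the threshold by voom, Hmmr in both cases. The endothelial receptors Stab2 (15.3 to 50.9 TPM at E16.5, 39.2 to 68.7 TPM at E18.5) and Lyve1 (9.62 to 17.1 TPM at E16.5, 13.1 to 21.9 TPM at E18.5) overlapped between the stages. Stab2 was listed above Cd44 in every library, and Lyve1 in all but E16.5 replicate C. Hmmr, a hyaluronan-binding protein of the mitotic spindle, was listed at 34.9 to 37.2 TPM at E16.5 and at 21.0 to 32.0 TPM at E18.5 (log2 change -0.49, adjusted p 0.0623 by limma). It was past the threshold under median-of-ratios scaling and quantile normalization too.

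The cytoplasmic tail of CD44 is tied to the actin cortex by the ezrin, radixin and moesin proteins, and its outer part is shed by membrane proteases. Of 8 genes of these groups, all tested, 2 were higher at E18.5 and none lower by limma, where 26% of all genes were higher. Ezr, which encodes the ezrin of apical membranes, rose from 67.0, 62.7 and 34.9 TPM to 121, 130 and 123 TPM (log2 change 1.22 ± 0.24 SE, adjusted p 0.0152 by limma), and was not past the threshold without E18.5 replicate A, where its adjusted p was 0.0539. Rdx (radixin) was listed at 180 to 222 TPM and Msn (moesin) at 15.3 to 32.2 TPM, both with overlapping stages.

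Among the sheddases, Mmp14, a membrane-anchored metalloproteinase, rose from 62.7, 65.5 and 44.4 TPM to 102, 97.4 and 82.4 TPM (log2 change 0.71, adjusted p 0.0256 by limma). Its call was lost without E18.5 replicate A or B and under median-of-ratios scaling. Adam10 was listed at 152 to 213 TPM and Adam17 at 26.1 to 43.7 TPM, without passing the test.

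Of the 5 membrane partners of CD44, 4 were tested. By limma 3 were higher at E18.5 and none lower, where 26% of all genes were higher. Under median-of-ratios scaling 1 of the 4, Cd74, was past the threshold. The receptor tyrosine kinase genes Egfr and Erbb2 rose, Egfr from 16.0, 13.6 and 11.6 TPM to 38.8, 26.5 and 49.0 TPM (log2 change 1.38 ± 0.24 SE, adjusted p 0.0126 by limma). Erbb2 went from 44.9, 43.5 and 19.4 TPM to 83.7, 87.8 and 72.5 TPM (log2 change 1.24 ± 0.31 SE, adjusted p 0.0262 by limma). Both calls were lost under median-of-ratios scaling and without E18.5 replicate A, and that of Erbb2 also without E18.5 replicate B. Met, the hepatocyte growth factor receptor, was listed at 82.1 to 93.3 TPM at E16.5 and 104 to 115 TPM at E18.5 (adjusted p 0.0761 by limma).

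Cd74, the invariant chain that signals with CD44, rose from 0.744, 0.909 and 0.0889 TPM to 4.35, 14.3 and 5.06 TPM (log2 change 2.37 ± 0.46 SE, adjusted p 0.0151 by limma). Its highest library, E18.5 replicate B, was also the highest for Ptprc (2.13 TPM) and for the macrophage sum (164 TPM). The same library was highest for the neutrophil sum (243 TPM) and the erythroid sum (575 TPM). The lymphoid and pan-leukocyte sum, whose list holds Ptprc, was highest in E16.5 replicate C, at 273 TPM against 57.3 TPM in E18.5 replicate B. Of the 12 macrophage markers 2 of 10 tested were higher and none lower by limma, where 26% of all genes were higher. In some library 1 of the 12 was at 0. The part of leukocytes in the Cd74 values was not tested.

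Inclusion of the variable exons of Cd44 is controlled by splicing regulators, of which 4 were looked at. Esrp1, an epithelial splicing factor, was listed at 20.2, 12.4 and 4.61 TPM at E16.5 and at 28.1, 32.4 and 24.6 TPM at E18.5 (log2 change 1.32, adjusted p 0.0596 by limma), and its partner Esrp2 at 68.3 to 81.7 TPM in all libraries. Khdrbs1 and Srrm1 were higher by 0.56 and 0.42 (adjusted p 0.0338 and 0.0304 by limma), close to the median of all genes. Both calls were lost in 10 of 15 alternatives, among them the removal of any library except E16.5 replicate B for Khdrbs1 and except E18.5 replicate C for Srrm1. Under median-of-ratios scaling the changes were 0.10 and -0.041. Which forms of Cd44 were present was not measured by values per gene.

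Finally, the genes whose pattern over the 6 libraries was most like that of each member were identified by the root mean square distance between centred log2(TPM + 1) values, as a description. Among 9599 protein-coding genes averaging 10 TPM or more, the closest to Spp1 was Fmo2, a flavin monooxygenase, at a distance of 0.117, where the Spp1 pattern itself has a size of 1.71. Fmo2 stood at 6.08 to 20.2 TPM at E16.5 (mean 14.9) and at 92.5 to 163 TPM at E18.5 (mean 133), a log2 change of 3.19. The next were Col9a3, a chain of collagen IX (0.251), Sctr, the secretin receptor found on cholangiocytes (0.276), Scara3 (0.276) and Ager (0.294). All 5 were lowest in E16.5 replicate C, as Spp1 was, which goes with their choice by likeness over the same libraries.

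For Cd44, 13960 protein-coding genes averaging 1 TPM or more were compared. The closest was Atg9b at a distance of 0.114, beside a size of 0.458 for the Cd44 pattern itself, at 1.95 to 2.31 TPM at E16.5 and 0.63 to 1.93 TPM at E18.5. Slc20a1, a phosphate transporter, followed at 0.117, with 31.2, 25.0 and 37.6 TPM at E16.5 and 14.4, 20.9 and 27.3 TPM at E18.5. Ceacam2 (0.148), Tm4sf19 (0.155) and Aqp3 (0.155) came next, each with a mean below 3 TPM at both stages. In all 5 genes E18.5 replicate A was the lowest library, as it was for Cd44, and this too goes with how they were chosen.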

How the data were processed

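RNA was sequenced from GFP-positive liver cells of Sox9-GFP embryos, 3 libraries per stage, with a stranded total RNA kit. The authors checked reads with FastQC 0.11.7, trimmed them with Trimmomatic, aligned them to GRCm38 with HISAT2 2.1.0, counted them per gene with HTSeq-count 0.5.4p3 on GENCODE vM15, and deposited TPM for 52550 genes. The submitters' processing notes also name Bowtie, without a role, and whether counting used the strand is not given in the sources used here.

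Groups were taken from the sample labels. Gene names, places and lengths came from GENCODE vM21 on the same build, which holds 52403 of the identifiers. The members and gene lists were chosen with earlier results of these data known. All genes of the 9 pathway lists (63 genes) and 11 marker lists could be named, plus the 5 genes most like each member, and 1 listed gene is not reported here.

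Whole reads were computed by multiplying TPM by exon length and dividing by the value of 1 read. Of the 180057 nonzero values of the 49035 genes with the same version, 100% were whole within 0.01, and reads were recovered for 49583 genes. They came to 13093937 to 26206374 per library and served for depth, 95% exact (Clopper-Pearson) intervals and limma voom. The libraries of one stage differed from each other by far more than sampling noise (chi-square of at least 15.1 per degree of freedom).

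For the test of the stages, log2(TPM + 1) was fitted by limma 3.58.1 (R 4.3.3) with an empirical Bayes trend. Genes averaging 1 TPM or more were tested, and p-values were adjusted over all of them by Benjamini-Hochberg. Such fold changes understate those of low genes. Permutation tests were run in Python 3.11.15, and the steps were tested on simulated data. The alternatives were a pseudocount of 0.1, no filter or one at 5 TPM, quantile normalization, scaling by median of ratios, eBayes without the trend or robust, the replicate letters as a block, voom with TMM on the recovered reads, and leaving out each library.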

Additional observations from a re-analysis of the deposited data

How the results depend on the processing

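Of 15 alternatives, all 15 kept Spp1 higher (log2 changes from 2.63 to 3.58, the range when 1 library was left out) and Cd44 lower at E18.5. For Cd44, voom gave -1.23 (adjusted p 0.0305, limma), and the others were not past the threshold. Its change was -1.002 with median-of-ratios scaling and -1.0038 with quantile normalization, and leaving out 1 library gave -0.88 to -0.32. The difference between the stages in the excess of Spp1 over the biliary markers was 1.69 in the main analysis. It ran from 1.54 to 2.11 over 10 alternatives and was highest, at 2.11, with quantile normalization. Against 7000 genes past the threshold, no filter gave 4282, median-of-ratios scaling 3795, quantile normalization 3787 and voom 4159, and leaving out 1 library 1472 (without E18.5 replicate A) to 5686. Against 20 pathway genes, median-of-ratios scaling gave 11, quantile normalization 12, and leaving out 1 library 6 to 19. Those 6, without E18.5 replicate A, were Itga9, Itgb3, Ets1, Has1, Cemip2 and Cd74. Of the 20 genes, 19 kept their direction throughout and 5 (Itgb3, Ets1, Has1, Cemip2, Cd74) also their call wherever tested. The change of Srrm1 was -0.041 with median-of-ratios scaling and -0.024 with voom, and that of Jun -0.028 and -0.013 under the same settings. Jun is 1 of 19 genes, of the 29 not past the threshold, whose direction turned in some alternative. The cause was not tested.

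The replicate letters showed no consistent pairing of the libraries, and whether they mark pairs was not settled. Deviations of libraries with the same letter correlated at -0.042 (A), 0.081 (B) and 0.14 (C). Those of different letters correlated at -0.15 to 0.084, and not every library correlated best with its own letter. With the replicate block 7314 genes and 23 pathway genes (21 higher, 2 lower) were past the threshold.

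With 162 to 587 reads, Cd44 is limited by depth more than Spp1, and genes such as Ibsp, Dmp1 and Mepe could not be compared at this depth.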

Other observations

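The calls on the other marker lists by limma were as follows, where 26% of all genes were higher and 5.22% lower. Of 10 hepatoblast markers 6 were lower at E18.5 and none higher, with a median log2 change of -1.15. Of 8 neutrophil markers 5 were higher and none lower (0 of 8 past the threshold by voom), and they summed to 18.8 to 46.4 TPM at E16.5 and 65.1 to 243 TPM at E18.5. None of 8 erythroid markers passed the threshold by limma or voom, 0 had an unadjusted p under 0.05, and they had sums of 223 to 298 TPM and 107 to 575 TPM. Of 8 pancreatic acinar markers tested 3 were lower and none higher (0 of 7 past the threshold by voom), and 2584 TPM of them stood in E16.5 replicate A, against 236 TPM in replicate B, 83.7 TPM in replicate C and 15.9 to 57.8 TPM at E18.5. Their part in the values of Spp1 and Cd44 was not tested.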
